A study of Rattus norvegicus with 19 samples.

Results

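The time course of albumin in rat cortex comprised 4 of the 19 arrays of the series: the arrays titled as albumin at 8 h, 24 h and 48 h in the first set of animals, and the sham array of that set. Each array held total RNA from the somatosensory cortex of an adult male Wistar rat. The albumin animals had the cortex perfused with artificial cerebrospinal fluid (ACSF) holding 0.1 mM bovine serum albumin, 25% of its level in serum, and were killed 8, 24 or 48 h later. The sham-operated animal was taken at 24 h, and the labels give no perfusate for it. Among the other arrays of set 1, 3 came from animals given deoxycholate (DOC, 2 mM; 7, 24 and 48 h), a bile salt used to open the blood-brain barrier, and 3 from animals given the growth factor TGF-β1 (10 ng/ml; 8, 24 and 48 h). Set 2 held other animals, all at 24 h: 3 given the same albumin, 2 sham-operated and 4 given albumin with an antibody to the type 2 TGF-β receptor (50 µg/ml) and the receptor kinase inhibitor SB431542 (100 µM). The last group entered here only through the spread of set 2.

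Every agent and time of set 1 was a single array, and there was no sham at 8 h or 48 h. At those times the effect of albumin and that of time since surgery therefore cannot be told apart. The comparison covered 10018 genes that had a log2 value above 4 on at least 2 set 1 arrays, each represented by its probe set of highest mean. A gene below 4 in the sham could pass this filter only through treated arrays. Shares of a gene list set beside those of all genes are therefore descriptive and were not tested. The values are log2 signals, so that a difference of 1 is a 2-fold change, and levels were compared within a gene only. In whole tissue, fewer cells of a type and less RNA per cell cannot be told apart.

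Albumin is the main protein of blood plasma and is largely kept out of the brain by the endothelium of its vessels. When the barrier opens it reaches astrocytes, the glial cells that clear potassium and glutamate, and it can act there through TGF-β receptors, whose signal is carried to the nucleus by SMAD proteins. Injured cortex responds in steps: cytokines and chemokines call in leukocytes, astrocytes become reactive and build up intermediate filaments, and microglia and macrophages take up debris. How these groups of genes followed each other after albumin is the question that a time course addresses.

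The 10 arrays of set 1 were closely matched in scale, with medians between 5.09 and 5.17 over all probe sets, and each had a median correlation of 0.987 to 0.992 with the others. Markers of neurons were present at high levels in all 4 arrays of the time course. Chn1, a neuronal regulator of the small GTPase Rac, stood at a log2 level of 13.58 in the sham and at 13.37, 13.21 and 12.91 at 8, 24 and 48 h, and Syt1, the calcium sensor of synaptic vesicles, at 11.44, 11.01, 10.76 and 10.75. All 26 neuronal genes on the list passed the filter, with median differences from the sham of -0.06, 0.04 and -0.17 at 8, 24 and 48 h.

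Averaged over the 3 times, albumin-treated cortex differed from sham in a small group of genes, nearly all of them higher. Ccl2, a chemokine, was among them, as were 5 genes of the reactive astrocyte list and 5 of the microglia and macrophage list, with Lgals3 on both. With limma and Benjamini-Hochberg adjustment over all genes, 37 genes (0.369%) passed an adjusted p of 0.05, of which 34 (0.339%) were higher and 3 (0.0299%) lower than sham, and 1192 genes (11.9%) had an unadjusted p under 0.05. All 37 differed by at least 2-fold and had the 3 albumin arrays on the same side of the sham. Among the 34 that rose, 22 were highest at 48 h, 9 at 24 h and 3 at 8 h. In 17 of the 37 the sham lay below a log2 value of 4, where signals are compressed and the size of a change is least certain. The spread behind these tests was that of the 9 treated arrays of set 1 around a sum of agent and time effects, and the lone sham was assumed to vary in the same way. The count rested on those arrays: it was 0 with the 4 arrays alone or without the 3 TGF-β1 arrays, 2 without TGF-β1 at 48 h, 9 and 12 without TGF-β1 at 8 h and 24 h, 3 without albumin at 8 h, 22 without albumin at 24 h, 136 without the DOC arrays and 117 without DOC at 48 h. None of the 37 changed direction in any of these fits. All of them kept the same sham, with the albumin arrays on 1 side of it, so that the direction could hardly change.

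**Figure D1:**
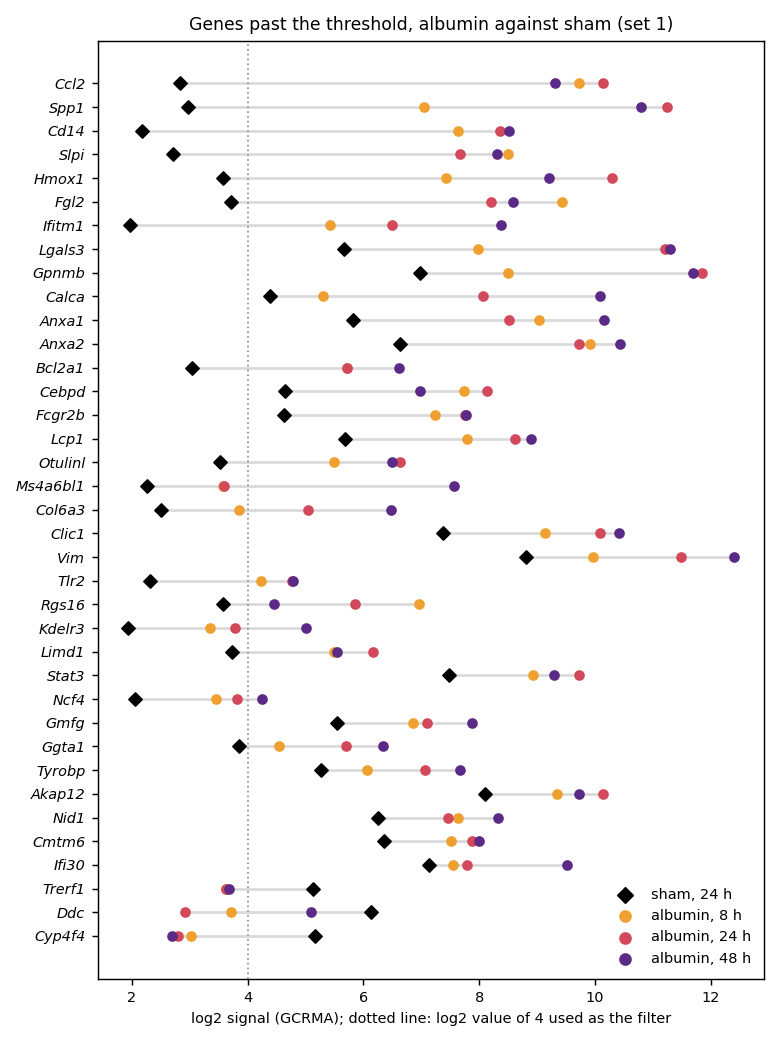
Log2 signal of the 37 genes past the threshold on the 4 arrays of the time course, with a black diamond for the sham and coloured circles for albumin at 8, 24 and 48 h, 1 array each. In all 37 the diamond lies outside the range of the circles, and in 17 it lies below the dotted line at a log2 value of 4.

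Among the called genes Ccl2, the chemokine that attracts monocytes, had the largest fitted difference. Its log2 level was 2.83 in the sham and 9.73, 10.13 and 9.31 at 8, 24 and 48 h after albumin, a mean difference of 6.89 ± 0.62 (SE, limma adjusted p = 0.0178). With values below log2 4 set to 4 the difference was 5.72, less than that of Timp1 (6.53), which did not pass. Ccl2 was thus close to its highest level by the first time sampled and stayed there. Cd14, a co-receptor for bacterial lipopolysaccharide on myeloid cells, behaved alike, from 2.17 in the sham to 7.64, 8.36 and 8.51 (difference 6.0 ± 0.57, limma adjusted p = 0.0232). Slpi, a secreted inhibitor of leukocyte proteases, stood at 2.72 in the sham and at 8.49, 7.67 and 8.31 (5.44 ± 0.57, limma adjusted p = 0.0268). Fgl2, a fibrinogen-like protein of macrophages and endothelium, went from 3.72 to 9.43, 8.21 and 8.59 (5.03 ± 0.40), and its 3 other probe sets were also higher on all albumin arrays. All 4 of these genes were at least 2-fold above the sham on every albumin array.

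Receptors and enzymes of myeloid cells also rose. Tlr2, a receptor for bacterial lipoproteins, had a log2 level of 2.31 in the sham and 4.24, 4.77 and 4.78 after albumin (2.29 ± 0.20). Tyrobp, the adaptor that signals for several microglial receptors, climbed from 5.27 to 6.07, 7.07 and 7.66 (1.67 ± 0.22), and Fcgr2b, an inhibitory receptor for antibody, from 4.63 to 7.24, 7.76 and 7.77 (2.96 ± 0.38). Ncf4, a subunit of the phagocyte NADPH oxidase, stayed low throughout, at 2.06 in the sham and 3.45, 3.81 and 4.25 (1.78 ± 0.23). Over the alternative settings the difference was as small as 0.6 for Tlr2 and 0.08 for Ncf4. Lcp1, the actin-bundling protein of leukocytes, and Bcl2a1, a survival factor of the same cells, differed by 2.75 ± 0.30 and 2.97 ± 0.36.

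A second pattern was a slower build-up of genes typical of phagocytes that handle lipid and debris. Spp1, which encodes the secreted protein osteopontin, had a log2 level of 2.97 in the sham, 7.04 at 8 h, 11.24 at 24 h and 10.80 at 48 h (6.73 ± 0.92, limma adjusted p = 0.0486). Lgals3, galectin-3, followed with 5.66 in the sham and 7.97, 11.21 and 11.29 (4.49 ± 0.40, limma adjusted p = 0.0178). Gpnmb, a membrane glycoprotein of lysosome-rich cells, went from 6.97 to 8.49, 11.85 and 11.69 (3.71 ± 0.48, limma adjusted p = 0.0385). In all 3 genes the 24 h and 48 h arrays lay near each other and well above the 8 h array. Hmox1, the heme-degrading oxygenase, peaked at 24 h, with 3.58 in the sham and 7.42, 10.29 and 9.21 (5.39 ± 0.70). On the list of heat shock, metallothionein and hypoxia genes it was the single member of 29 tested that rose, against 0.339% of all genes. None fell, and the list's medians were 0.34, 0.39 and 0.48. The 3 red cell genes that could be tested were above the sham at all times, with median differences of 2.99, 1.84 and 1.51, and the part of blood in the Hmox1 result was not tested.

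The promoters of Spp1, Cd14 and Gpnmb are shown because these are the 3 largest rises, in order, for which the promoter table held a sequence; 4 of the 10 largest rises were matched in it. The sequences are those of RefSeq on GRCr8, 250 bases before to 50 after the annotated start, on the gene's own strand, and capitals mark motif matches.
Spp1, chr14:5619755-5620054, minus strand: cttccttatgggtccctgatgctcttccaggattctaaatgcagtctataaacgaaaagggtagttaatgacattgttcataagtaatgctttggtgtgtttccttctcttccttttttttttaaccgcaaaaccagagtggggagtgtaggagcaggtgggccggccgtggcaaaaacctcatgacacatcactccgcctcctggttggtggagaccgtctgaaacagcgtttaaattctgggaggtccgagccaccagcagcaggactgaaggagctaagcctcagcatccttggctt
Cd14, chr18:28611109-28611408, minus strand: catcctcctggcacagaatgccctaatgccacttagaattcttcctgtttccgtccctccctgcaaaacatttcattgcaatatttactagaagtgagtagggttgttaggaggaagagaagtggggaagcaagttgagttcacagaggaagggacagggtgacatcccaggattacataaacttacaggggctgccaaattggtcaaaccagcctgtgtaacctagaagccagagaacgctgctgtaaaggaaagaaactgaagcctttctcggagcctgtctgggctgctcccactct
Gpnmb, chr4:79340878-79341177, plus strand: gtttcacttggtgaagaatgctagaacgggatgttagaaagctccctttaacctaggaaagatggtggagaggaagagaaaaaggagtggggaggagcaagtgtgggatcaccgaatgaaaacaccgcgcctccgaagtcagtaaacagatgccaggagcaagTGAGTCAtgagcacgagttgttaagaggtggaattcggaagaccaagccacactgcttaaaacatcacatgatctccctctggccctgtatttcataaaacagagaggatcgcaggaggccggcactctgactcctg
The motifs searched on both strands were AP-1 (TGANTCA), STAT (TTCNNNGAA), κB (GGGNNTTCC), the cyclic AMP response element (TGACGTCA), the heat shock element (HSE) and the clock E-box (CACGTG). Among the 33469 promoters of the table these occurred in 7.33%, 8.87%, 5.92%, 1.83%, 0.798% and 6.42%. Within these windows the only match was TGAGTCA in Gpnmb, whose first base lies at position -87 from the start. The letters of the other motifs are not in these 3 windows, which says nothing about the factors.

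Among the lists with at least 3 genes tested, that of reactive astrocytes had the largest median difference from the sham at 24 h and 48 h. All 22 members that passed the filter, of 25 on the array, were above the sham at all 3 times, against 26.9% of all genes tested, and 5 rose, against 0.339% of all genes: Cd14, Lgals3, Cebpd, Stat3 and Vim. Cd14 and Lgals3 are also made by myeloid cells, and Lgals3 stands on the microglia and macrophage list as well. The list's median difference from the sham was 2.14 at 8 h, 2.33 at 24 h and 3.20 at 48 h, against -0.03, 0.00 and -0.01 over all genes. Vim, the intermediate filament vimentin, climbed from 8.80 in the sham to 9.96, 11.48 and 12.40 (2.48 ± 0.26, limma adjusted p = 0.0268). Stat3, the transcription factor through which interleukin-6 type cytokines act on astrocytes, was already high at 8 h, at 7.48 in the sham and 8.92, 9.73 and 9.29 (1.84 ± 0.19, limma adjusted p = 0.0268), and its other probe set was higher on all 3 albumin arrays too. Cebpd, a partner transcription factor of acute inflammation, was at 4.65 in the sham and 7.73, 8.13 and 6.97 (2.96 ± 0.37).

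The filament protein most used as a sign of astrocyte reactivity, Gfap, did not pass the threshold. Its log2 level was 12.07 in the sham, 12.28 at 8 h, 13.70 at 24 h and 13.84 at 48 h (1.21 ± 0.41, limma adjusted p = 0.305), so that the 8 h array lay next to the sham. Timp1, an inhibitor of matrix metalloproteinases, was at 4.15 in the sham and 10.66, 10.01 and 11.36 (6.53 ± 0.94, limma adjusted p = 0.051), which missed the threshold. In set 2 its shams were at 10.83 and 11.20 and its albumin animals at 11.32, 13.53 and 12.46, a far smaller difference of 1.42 ± 0.73 (limma adjusted p = 0.296). Lcn2, the iron-siderophore carrier lipocalin-2, was at 2.11 in the sham and 7.34, 9.27 and 6.86 (5.71 ± 1.21, limma adjusted p = 0.116). Serpina3n, a secreted protease inhibitor, was at 2.33 and then 4.51, 6.44 and 5.83 (3.26 ± 0.59, limma adjusted p = 0.0812). In Timp1, Lcn2 and Serpina3n the lowest set 1 albumin array was still more than 2-fold above the sham.

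Calca, the gene of calcitonin and of the neuropeptide CGRP, had the most graded course among the large rises. Its log2 level was 4.39 in the sham, 5.30 at 8 h, 8.06 at 24 h and 10.09 at 48 h (3.43 ± 0.29, limma adjusted p = 0.0178). A second probe set of the gene ran from 2.63 to 2.59, 4.18 and 7.28, and the third stayed between 2.03 and 2.12. Rgs16, a brake on G protein signals, ran the other way among the genes that rose, with 3.57 in the sham, 6.96 at 8 h, 5.85 at 24 h and 4.46 at 48 h (2.18 ± 0.24). Ifitm1, an interferon-induced membrane protein, built up from 1.97 to 5.43, 6.49 and 8.38 (4.80 ± 0.58).

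Annexins and matrix genes made up a further group. Anxa1, a mediator of resolving inflammation, was at 5.82 in the sham and 9.04, 8.52 and 10.15 (3.41 ± 0.37), and Anxa2, which binds plasminogen activator at the cell surface, at 6.63 and then 9.91, 9.73 and 10.43 (3.39 ± 0.42); a second Anxa2 probe set stayed between 2.47 and 2.49. Col6a3, a chain of collagen VI, went from 2.50 to 3.86, 5.05 and 6.48 (2.63 ± 0.24). Nid1, the basement membrane protein nidogen-1, was the single member that rose of 32 extracellular matrix genes tested, against 0.339% of all genes. It went from 6.25 to 7.63, 7.46 and 8.33 (1.55 ± 0.20, limma adjusted p = 0.0385). Its other probe set was lower on the albumin arrays, at 4.25, 4.32 and 4.17 against 4.65. No member of that list fell, and its medians were 0.47, 0.35 and 1.17. The remaining rises included Akap12, a scaffold of kinase A, at 1.64 ± 0.17, and Kdelr3, a retrieval receptor of the endoplasmic reticulum, at 2.11 ± 0.29. Kdelr3 was low, at 1.94 in the sham and 3.36, 3.79 and 5.01 after albumin. Over the alternative settings its difference was as small as 0.34.

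Only 3 genes fell under these settings. Cyp4f4, a cytochrome P450 that hydroxylates fatty acids and eicosanoids, was at 5.17 in the sham and 3.02, 2.80 and 2.69 after albumin (difference -2.33 ± 0.26, limma adjusted p = 0.0282). Ddc, the decarboxylase that makes dopamine and serotonin, was at 6.13 and then 3.72, 2.92 and 5.10 (-2.21 ± 0.29, limma adjusted p = 0.0385). Trerf1, a transcriptional regulator, was at 5.13 and then 3.62, 3.63 and 3.68 (-1.48 ± 0.20, limma adjusted p = 0.0487). On the albumin arrays Cyp4f4 and Trerf1 were thus below the filter value of 4 at every time. The next lower genes in order of p, which did not pass, were Cdh20 with a difference of -1.43, Ltk with -1.27, Efhd1 with -1.28, Tcap with -1.74 and Atp13a5 with -1.29.

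The distance from the sham grew with time. At 8 h, 334 genes (3.33%) were at least 2-fold higher and 146 (1.46%) at least 2-fold lower than the sham; at 24 h these counts were 487 (4.86%) and 253 (2.53%), and at 48 h 596 (5.95%) and 324 (3.23%). These are differences between single arrays, with no replicate check. Of the genes higher at any time, 73 passed 2-fold at 8 h alone, 127 at 24 h alone and 249 at 48 h alone, and 166 (1.66%) did so at all 3 times. Of the lower ones, 49, 105 and 189 passed at 8, 24 or 48 h alone and 42 (0.419%) at all 3. The 166 genes higher throughout were furthest from the sham at 48 h in 79 cases, at 24 h in 60 and at 8 h in 27.

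**Figure D2:**
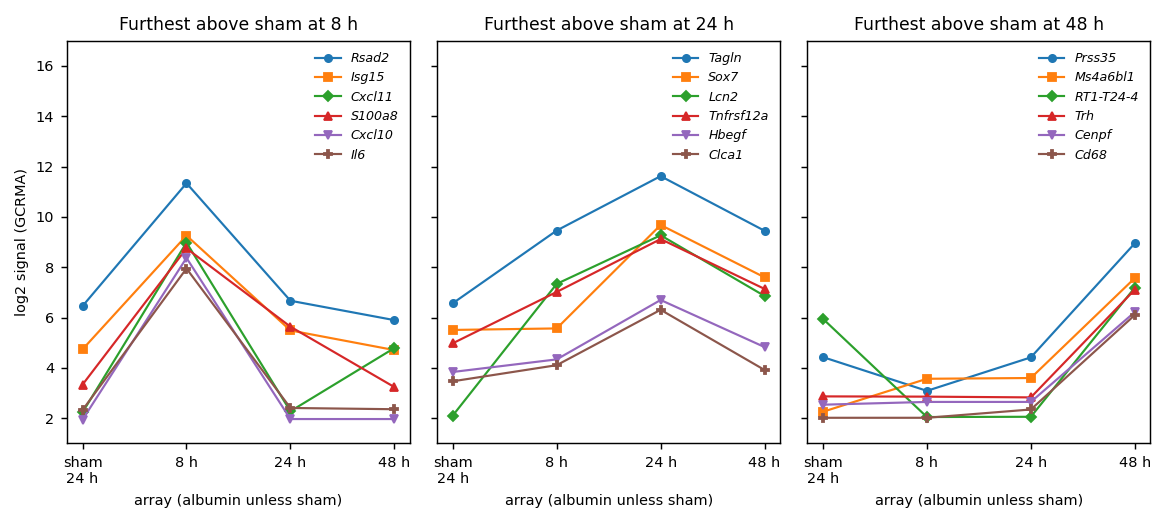
Log2 signal on the sham array and on the albumin arrays at 8, 24 and 48 h of the 6 genes per time whose difference from the sham most exceeded that at both other times. The genes of the left panel lie highest at 8 h, those of the middle panel at 24 h and those of the right panel at 48 h; each point is 1 array.

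The 8 h array stood out by interferon-induced genes and short-lived cytokines. Cxcl10, a T cell chemokine induced by interferon, was at a log2 level of 8.37 at 8 h and at 1.95, 1.97 and 1.97 in the sham, at 24 h and at 48 h. Il6, the cytokine interleukin-6, showed the same single peak in set 1, with 2.33 in the sham, 7.95 at 8 h and 2.41 and 2.36 later. In set 2 at 24 h, Il6 was at 2.25, 4.41 and 5.55 with albumin and 2.28 and 2.30 in the shams. Cxcl10 was at 2.00, 1.92 and 2.67 there, against 1.90 and 1.92. Rsad2, the antiviral enzyme viperin, was at 6.46 in the sham and 11.34, 6.67 and 5.90. Isg15, a ubiquitin-like modifier, was likewise high at 8 h alone, with 4.74, 9.26, 5.49 and 4.71, whereas Cxcl11 went from 2.24 to 8.98, back to 2.28 and then to 4.79. S100a8 and S100a9, the calprotectin chains carried by neutrophils, declined more slowly: S100a9 was at 4.90 in the sham, 11.02 at 8 h, 8.13 at 24 h and 5.19 at 48 h. These were the only 2 of 13 neutrophil and lymphocyte genes on the array to pass the filter, so that Camp, Np4 and Cxcr2 of neutrophils and Cd3e and Cd3d of T cells were not above a log2 value of 4 on 2 arrays.

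The lists gave the same order. Cytokine, chemokine and NF-κB genes had their highest median at 8 h, at 1.71, then 1.10 and 0.40. Of 38 on the array 26 were tested, and Ccl2 alone passed the threshold, against 0.369% of all genes. Above the sham at all times were 21 of the 26, against 26.9% of all genes. Members below log2 4 in the sham, such as Ccl2 and Il6, could pass the filter only through treated arrays, so that this share tests nothing. Interferon response and antigen presentation genes had medians of 1.69, 0.72 and 0.46, with 11 of 21 at least 2-fold higher at 8 h, against 3.33% of all genes, and none that passed over the 3 times. In set 2 at 24 h the mean difference over this list was 0.04, 0.25 and 1.59 in the 3 albumin animals, so that 1 of them lay apart. Class II genes of that list were also high at 48 h: RT1-Da, a chain of the class II complex, was at 2.42 in the sham and 6.33, 3.96 and 6.55, and Cd74, the invariant chain, at 3.45 and then 6.48, 5.75 and 6.83 (2.91 ± 0.61, limma adjusted p = 0.114). Among genes named after their values were seen, Ifit3 was at 3.12 in the sham and 7.77, 5.07 and 2.85, and the neutrophil-attracting chemokine Cxcl1 at 2.50 and then 6.85, 5.44 and 2.72.

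**Figure D3:**
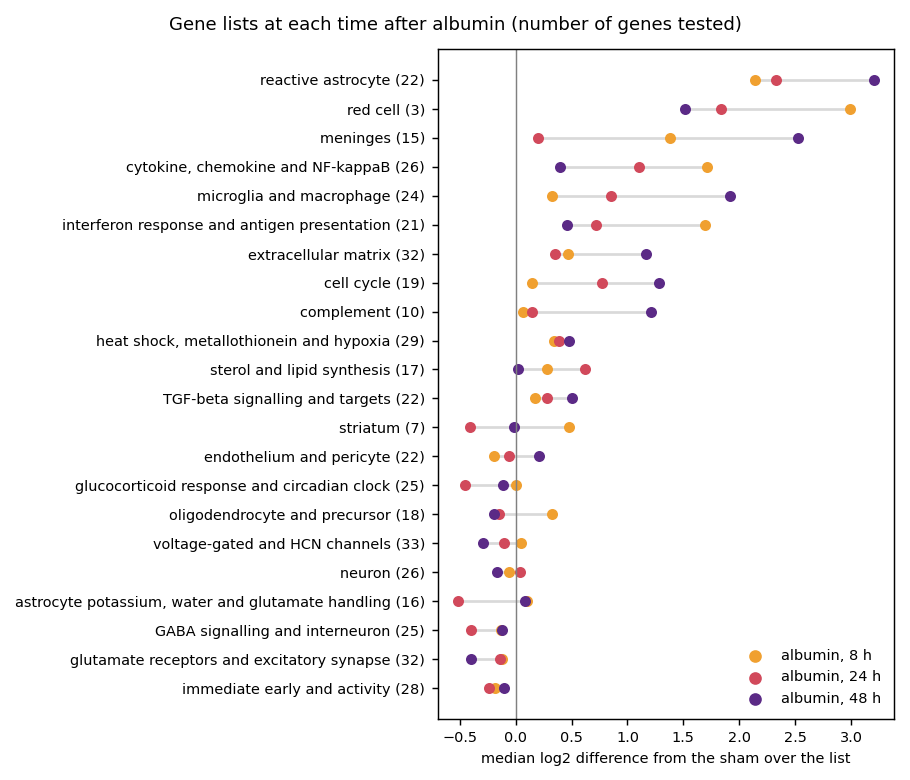
Median log2 difference from the sham over each gene list with at least 3 genes tested, with 1 point for each albumin array; the number of genes tested stands after each name. Reactive astrocyte genes have the highest median at 24 h and 48 h, cytokine and interferon genes are highest at 8 h, microglia, complement and cell cycle genes at 48 h, and neuronal lists stay near 0.

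Some genes were furthest from the sham at 24 h, and none of those named here passed the threshold over the 3 times. Tagln, the smooth muscle protein transgelin, was at 6.57 in the sham and 9.46, 11.62 and 9.45. Tnfrsf12a, the receptor of the cytokine TWEAK, was at 4.98 and then 7.02, 9.12 and 7.14 (2.79 ± 0.47, limma adjusted p = 0.0735), and Hbegf, a ligand of the EGF receptor, at 3.84 and then 4.34, 6.70 and 4.83. Sox7, a transcription factor of endothelium, stood at 5.51 in the sham and 5.57 at 8 h, and at 9.68 and 7.60 later. On the low side Gjb2, a connexin of meninges and astrocytes, dipped at 24 h alone, with 5.66 in the sham and 6.49, 3.22 and 6.94, as did Bmp4, with 6.75 and then 6.63, 5.12 and 6.87. Hspb1, a small heat shock protein named after its values were seen, was at 6.18 in the sham and 7.22, 11.18 and 10.46.

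Some phagocyte genes were high at 48 h alone. Cd68, a lysosomal protein of macrophages, was at 2.02 in the sham and at 2.02 and 2.35 at 8 h and 24 h, and reached 6.10 at 48 h. The microglia and macrophage list had medians of 0.33, 0.85 and 1.92; 5 of its 24 tested genes rose (Spp1, Gpnmb, Lgals3, Fcgr2b and Tyrobp), against 0.339% of all genes, and none fell. Of these 5, Spp1, Gpnmb, Lgals3 and Fcgr2b were already near their 48 h level at 24 h. Its members typical of resting microglia ran differently: P2ry12, a purine receptor, was at 8.88 in the sham, 7.21 at 8 h, 6.02 at 24 h and 9.81 at 48 h, and Tmem119 at 5.81 and then 4.13, 3.23 and 6.29. Both were lowest at 24 h and above the sham at 48 h, and neither passed the threshold; they were named after their values were seen. Complement genes had medians of 0.07, 0.15 and 1.21, led by C1qc, a chain of the first component, at 5.40 in the sham and 5.63, 6.79 and 8.37 (1.53 ± 0.27, limma adjusted p = 0.0798).

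Cell cycle genes had medians of 0.15, 0.77 and 1.28, with none of 19 past the threshold and 0, 9 and 11 at least 2-fold higher at 8, 24 and 48 h, against 3.33%, 4.86% and 5.95% of all genes. Cdk1, the kinase that drives mitosis, was at 2.42 in the sham and 3.14, 4.57 and 6.95, and Cenpf, a kinetochore protein, was at 2.54, 2.65 and 2.65 before it reached 6.22 at 48 h. Mki67, the proliferation marker named after its values were seen, was at 3.03 and then 3.14, 4.62 and 6.57. Mcm4, a helicase subunit of DNA replication, was highest at 24 h, with 6.66, 7.50, 8.03 and 7.60. Trh, the precursor of thyrotropin-releasing hormone, was also high at 48 h alone, at 7.11 against 2.83 to 2.87 on the other arrays. Of the genes lowest at 48 h, Camk2a, the main kinase of the excitatory synapse, was at 12.22 in the sham and 11.69, 11.58 and 8.34, and its 3 other probe sets were also lowest at 48 h.

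Meningeal markers varied strongly between the arrays, and not in order of time. The 15 tested genes of that list had median differences of 1.38 at 8 h, 0.20 at 24 h and 2.52 at 48 h, with 10, 2 and 13 of them at least 2-fold above the sham, against 3.33%, 4.86% and 5.95% of all genes, and none passed the threshold over the 3 times. Col1a2, a chain of collagen I, was at 3.80 in the sham and 6.42, 4.30 and 8.21 (2.51 ± 0.45, limma adjusted p = 0.0807). Named after their values were seen, Col3a1 was at 4.21 and then 5.98, 3.93 and 8.79, Lum at 3.87 and then 4.98, 3.43 and 8.07, and Ogn at 3.76 and then 7.80, 3.96 and 6.76. The 3 collagen genes, Dcn, Lum and Bgn stand on both this list and that of extracellular matrix, whose median of 1.17 was also highest at 48 h, and the part of meninges in the matrix values at 8 h and 48 h was not tested.

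Genes of TGF-β signalling moved little in set 1. In set 2, at 24 h, their median was 0.57, and 2 of 26 tested rose, against 0.958% of all genes. None fell there. Of 22 tested in set 1 none passed the threshold, and the medians were 0.17, 0.28 and 0.50. After TGF-β1 itself the medians of this list were 0.27, 0.23 and 0.36 at 8, 24 and 48 h. The list thus barely moved with the ligand either, and whether albumin engaged the pathway was not tested. The ligand Tgfb1 was at 3.58 in the sham and 3.96, 4.63 and 5.07 (0.97 ± 0.45, limma adjusted p = 0.462), and Tgfb2 at 7.28 and then 7.79, 7.53 and 8.14 (0.54 ± 0.32, limma adjusted p = 0.599). The inhibitory Smad7, a direct target of the pathway, stayed between 6.58 and 7.17 around a sham value of 6.73. After TGF-β1 it was at 7.00, 7.10 and 6.90. Smad1, which carries the signal of the BMP branch, was at 8.40 and then 8.94, 9.18 and 8.81 (0.58 ± 0.23, limma adjusted p = 0.408). The largest difference on the list was that of Tgfbi, a matrix protein induced by TGF-β, named after its values were seen, at 2.77 in the sham and 4.10, 5.43 and 7.53 (2.91 ± 1.52, limma adjusted p = 0.533).

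Among astrocyte genes for potassium, water and glutamate handling, none of 16 passed, and the medians were 0.10, -0.51 and 0.08. At 24 h 3 of them were at least 2-fold lower than the sham, against 2.53% of all genes. In set 2, also at 24 h, the median was -0.69, none passed, and the mean difference over the list was -0.78, -1.71 and -0.74 in the 3 albumin animals. Aqp4, the water channel, was at 12.80 in the sham and 12.82, 12.75 and 13.37. Gja1, the main gap junction protein of astrocytes, was at 13.50 and then 13.63, 12.98 and 13.69. A second Gja1 probe set differed, with 6.2 in the sham and 4.73, 3.54 and 6.46, and the third stayed between 1.99 and 2.02. The glutamate transporter Slc1a3 was at 12.86 and then 12.70, 12.52 and 13.00. Its other probe sets were at 7.71 and then 8.54, 7.79 and 7.92, and at 10.8 and then 10.37, 9.95 and 10.52. For Slc1a2 the 2 probe sets differed, with 7.00 and then 8.05, 7.00 and 7.02 for the one and 5.18 and then 4.65, 4.14 and 4.02 for the other. Kcnj10, the inward rectifier Kir4.1, was at 4.05 in the sham and 3.24, 3.25 and 3.65, and did not pass the filter.

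Synaptic and activity genes showed small or mixed differences. Glutamate receptor and excitatory synapse genes had medians of -0.12, -0.14 and -0.40, with 17 of 32 below the sham at all times against 30.2% of all genes and none past the threshold. GABA and interneuron genes had medians of -0.13, -0.40 and -0.12, with 13 of 25 below at all times, against the same 30.2%; Calb1, the calcium buffer calbindin, was at 11.76 and then 10.86, 9.61 and 10.25 (-1.52 ± 0.30, limma adjusted p = 0.1). Of 28 immediate early genes, 10 were above and 13 below the sham at all times, against 26.9% and 30.2% of all genes, and none passed the threshold. Nr4a1, an activity-induced nuclear receptor, was at 10.37 in the sham and 8.25, 7.46 and 8.26 (-2.38 ± 0.44, limma adjusted p = 0.0845), and Arc, a regulator of synaptic strength, at 9.47 and then 7.55, 6.38 and 8.43. Fosb, named after its values were seen, lay above the sham instead, at 3.37 and then 6.57, 7.31 and 5.82, while Fos stayed near it, at 10.76 and then 10.35, 11.01 and 9.85. Set 2 did not show the lower levels of Arc and Nr4a1 at 24 h. Arc differed by 1.31 ± 0.52 there and Nr4a1 by 0.25 ± 0.48 (limma adjusted p = 0.199 and 0.779). The median of the immediate early list at 24 h was -0.24 in set 1 and 1.15 in set 2. In set 2, 2 of its 29 tested genes rose, against 0.958% of all genes, and none fell.

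None of the remaining lists had a member past the threshold. Sterol and lipid synthesis genes (17 tested) had medians of 0.28, 0.62 and 0.02, oligodendrocyte and precursor genes (18 tested) 0.33, -0.15 and -0.19, and voltage-gated and HCN channels (33 tested) 0.05, -0.10 and -0.29. Markers of tissue next to the cortex were few: 7 of striatum, with medians of 0.48, -0.41 and -0.01, and 2 of choroid plexus, of which Ttr, the thyroid hormone carrier transthyretin, was at 5.31 in the sham and 3.59, 3.31 and 3.60. Glucocorticoid and clock genes (25 tested) had medians of 0.00, -0.45 and -0.11.

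The clock gene Per1 was at 6.68 in the sham and 5.48, 4.66 and 4.69 (-1.74 ± 0.30, limma adjusted p = 0.0765), and Bmal1 at 7.62 and then 6.29, 6.88 and 5.76. Per1 and Bmal1 normally cycle in opposite phase. The labels give no time of day, and its part in these values was not tested. Fkbp5, a chaperone induced by glucocorticoids, was high at 8 h, at 7.00 in the sham and 9.32, 7.35 and 7.63. Vessel genes had medians of -0.19, -0.06 and 0.21; Abcg2, a drug efflux pump of the barrier, was at 7.39 and then 5.15, 4.30 and 7.59, and Ocln, the tight junction protein occludin, at 6.28 and then 4.60, 4.37 and 6.38. Both were near the sham level at 48 h, and neither passed the threshold (limma adjusted p = 0.101 and 0.123).

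Several of these genes were also high after the other agents of set 1. All agents share the sham, so that only levels and direct differences are compared. Calca was at 5.30, 8.06 and 10.09 after albumin, at 5.23, 7.69 and 9.83 after DOC and at 5.18, 8.49 and 9.65 after TGF-β1. Albumin minus DOC was 0.23 (95% interval -0.25 to 0.72) and albumin minus TGF-β1 0.04 (-0.44 to 0.53). The additive fit gives a small spread to genes with a parallel course after the agents. Calca was picked as a called gene of that fit, so that its likeness here is no separate result. Medians of the reactive astrocyte list at 24 h and 48 h were 2.33 and 3.20 after albumin, 2.22 and 3.13 after DOC and 2.20 and 2.86 after TGF-β1, whereas at the first time they were 2.14 after albumin, 0.95 after DOC at 7 h and 0.86 after TGF-β1. Interferon genes were apart at the first time as well, with a median of 1.69 after albumin, -0.17 after DOC at 7 h and 0.03 after TGF-β1; Rsad2 was at 11.34, 6.34 and 6.57. With 1 array for each agent and time, these differences at a single time were not tested.

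Over the 3 times, no gene passed the threshold between albumin and TGF-β1 (limma, 0 of 10018, 0%; 877 genes or 8.75% with an unadjusted p under 0.05). Ccl2 was at 9.73, 10.13 and 9.31 after albumin and 8.46, 8.02 and 8.40 after TGF-β1, a difference of 1.43 (95% interval 0.39 to 2.46, limma adjusted p = 0.51). Slpi differed by 1.89 (0.93 to 2.84) and Plin2, a coat protein of lipid droplets, by 1.71 (1.02 to 2.40), both with a limma adjusted p of 0.493. Vim differed by 0.11 (-0.32 to 0.55). The values of Ccl2, Slpi and Plin2 were higher after albumin at each of the 3 times, but at this number of arrays the differences did not pass.

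Between albumin and DOC, 1 gene passed (limma, 0.00998% of genes; 749 or 7.48% with an unadjusted p under 0.05). It was the pseudogene record Brcc3-ps7, at 8.36, 8.63 and 8.10 after albumin, 8.35 in the sham and 3.00, 2.11 and 2.13 after DOC, a difference of 5.95 (95% interval 5.47 to 6.44, limma adjusted p = 0.000152). It is the DOC arrays that stood apart here, and the call was lost when only the arrays of the 2 agents were fitted. In set 2 the same probe set was at 9.72, 8.62 and 2.23 in the 3 albumin animals and 8.73 and 8.67 in the shams, so that 1 of the albumin animals lay far below the other arrays shown of its own set. A pseudogene can share signal with its parent gene, and its value is uncertain for that reason.

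**Figure D4:**
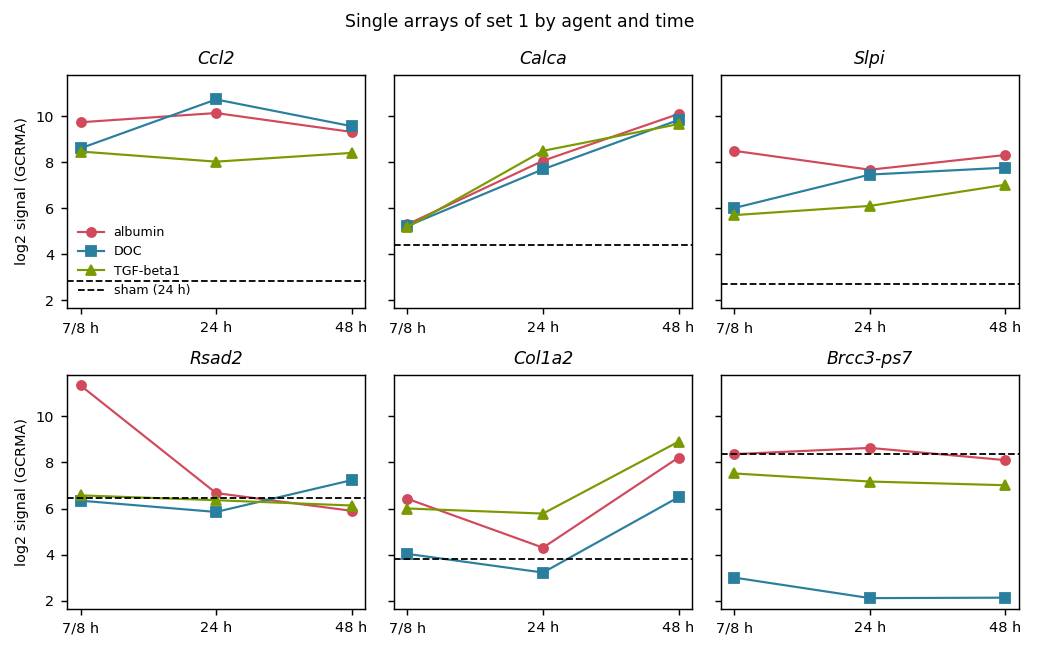
Log2 signal of 6 genes at 3 times after albumin, DOC (first time 7 h) and TGF-β1, 1 array per point, with a dashed line for the sham at 24 h. Calca runs alike after all agents, Rsad2 is high after albumin at 8 h alone, and Brcc3-ps7 is low after DOC.

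Set 2 offered the same agent, dose and time in other animals, with no array in common. There 137 of 10329 genes (1.33%) passed, 99 (0.958%) higher and 38 (0.368%) lower with albumin at 24 h. Of the 37 genes called in set 1, 36 could be tested in set 2. All 36 differed in the same direction, where 52.3% of genes tested in both sets had a positive difference. In set 2, 30 of them had an unadjusted limma p under 0.05, against 21.4% of all genes tested there. Past the adjusted threshold in both sets were 10 genes, 27% of the set 1 calls and 7.3% of the set 2 calls: Ccl2, Lgals3, Gpnmb, Otulinl, Clic1, Vim, Rgs16, Stat3, Akap12 and Ddc. Set 2 levels are not set against those of set 1, since its array medians were higher, at 6.05 to 6.18. The count of set 2 was 2 or 1 without its first or second sham and 10 or 14 without the first or second array with blockers.

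Ccl2 was at 10.97, 13.47 and 11.85 in the albumin animals of set 2 and 2.52 and 4.71 in its shams (difference 8.48 ± 1.04, limma adjusted p = 0.0265). Vim was at 12.99, 13.16 and 12.77 against 11.60 and 11.42 (1.47 ± 0.22, limma adjusted p = 0.0366). Ddc was at 2.30, 2.49 and 3.26 against 6.69 and 6.58 (-3.95 ± 0.43, limma adjusted p = 0.025), a wider gap than in set 1. The groups did not overlap for any of these 3, which were taken from the genes past the threshold there. The share of all genes without overlap was not counted. Separation of 3 arrays from 2, here and for the genes below, is therefore descriptive. Calca, at 9.11, 11.46 and 10.55 against 4.42 and 6.15, did not overlap either but missed the threshold (5.09 ± 1.23, limma adjusted p = 0.0768). For other large rises of set 1 the 2 shams of set 2 lay far apart, and none of these passed there. Spp1 was at 3.10 and 7.63 in the shams and 11.69, 13.09 and 10.58 with albumin (6.42 ± 1.47, limma adjusted p = 0.0691), and Cd14 at 2.38 and 6.28 and then 8.28, 10.43 and 9.83 (5.18 ± 1.43, limma adjusted p = 0.102). Slpi was at 3.29 and 6.88 and then 9.0, 8.71 and 10.64 (4.37 ± 1.45, limma adjusted p = 0.147). In these 3 genes every albumin animal lay above both shams. Lcn2, which was not called in set 1, overlapped, at 3.10 and 7.71 in the shams and 10.95, 5.97 and 12.41 with albumin (4.37 ± 2.27, limma adjusted p = 0.301). Such a spread between shams cannot be seen in set 1, which has 1.

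Weakest in set 2 were Nid1, with 0.07 ± 0.28, and Ifi30, with 0.44 ± 0.19, and Ifitm1 differed by 1.04 ± 0.72 there against 4.80 ± 0.58 in set 1.

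**Figure D5:**
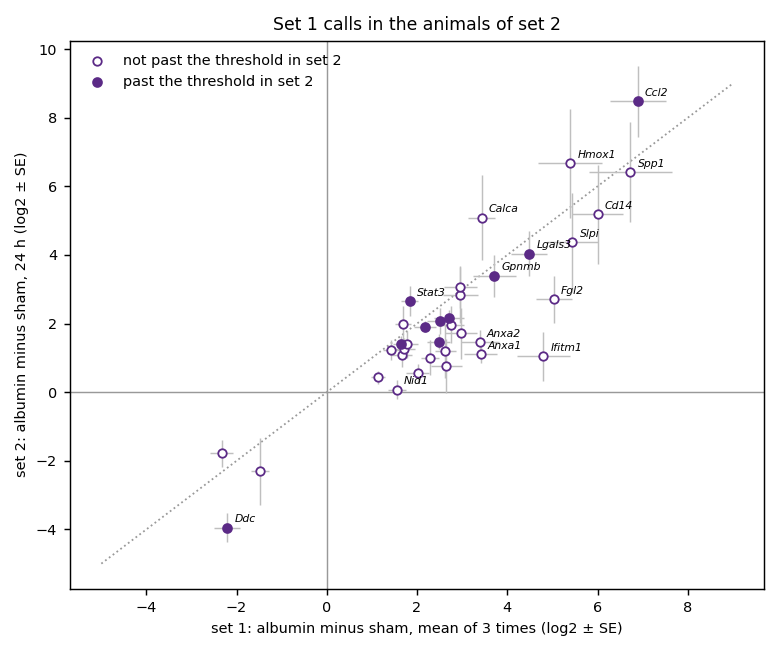
Difference between albumin and sham of the 36 genes called in set 1 and tested in set 2: mean of the 3 times in set 1 on the x axis and 24 h in set 2 on the y axis, log2 with SE bars. Filled points are the 10 genes past the threshold in both; all 36 lie in the lower left or upper right part of the plot, where the signs match, and the dotted line marks equal differences.

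Across the 9841 genes tested in both sets, the difference of the 24 h array from the sham correlated with that of set 2 at r = 0.73, and those at 8 h and 48 h at r = 0.49 and r = 0.50. These are correlations across genes, which are not independent, and the 3 time points share 1 sham. Of 466 genes at least 2-fold higher at 24 h and tested in both sets, 447 were also higher in set 2 and 274 by at least 2-fold, against 4.11% of all genes tested in both. Of 249 genes at least 2-fold lower, 217 were lower in set 2 and 110 by at least 2-fold, against 2.58%. Sox7, Tagln and Tnfrsf12a, furthest from the sham at 24 h in set 1, differed by 3.37 ± 0.72, 3.50 ± 0.59 and 4.86 ± 0.87 in set 2 (limma adjusted p = 0.0619, 0.0446 and 0.047). Gjb2 was 4.47 ± 0.87 lower on the log2 scale there, and P2ry12 2.38 ± 0.47 lower, neither past the threshold (limma adjusted p = 0.055 and 0.0558).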

How the data were processed

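Trizol was used for extraction and cRNA was labelled with biotin for Affymetrix arrays, per the labels. Signals were deposited by the authors on a log2 scale, as 1 value for each probe set; GCRMA is named in the submitters' processing notes, and its version and settings are not given in the sources used here. Of 31099 probe sets, 20826 named 1 gene in the platform annotation, 436 several and 9780 none; 57 controls were left out. For each of 14217 genes the probe set of highest mean over the 19 arrays was used, and genes above log2 4 on at least 2 set 1 arrays (10018) or set 2 arrays (10329) were tested. limma 3.58.1 in R 4.3.3 fitted agent and time to the 10 set 1 arrays, with the sham at the mean time, and 3 groups to the 9 set 2 arrays; tests were two-sided with Benjamini-Hochberg adjustment and a threshold of 0.05. An additive fit assumes that agents share their time effects. P-values measure the spread between these arrays, and their number limits the precision. On simulated data for the albumin comparison (10018 genes), 34%, 92%, 98% and 100% of genes changed by log2 1, 2, 3 and 4 were recovered, with 4 false calls. The simulation drew from the fitted model itself, with independent normal noise and a sham that varied like the treated arrays. It therefore cannot test those assumptions, and recovery in the real data may be lower. Named were the 10 largest rises, the 8 falls of smallest p, the 3 genes of smallest p on each of 24 lists, the 5 per direction furthest from sham at all times, the 6 per time and direction, the 4 per direction between agents, the called genes and 22 fixed genes; others are marked in the text. The genes and lists were chosen with earlier results of these data known. Replicate numbers did not pair the animals of set 2. Alternatives covered the filter, probe set choice, a floor, scaling, the arrays fitted and each array left out.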

Additional observations from a re-analysis of the deposited data

Results flagged for a closer look

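Meningeal markers lay above the sham in set 1, mostly at 8 h and 48 h. In set 2, which was all at 24 h, they lay below the shams. Over the 15 genes tested in both, the mean difference of the albumin arrays of set 1 from their sham was 1.44 at 8 h, 0.31 at 24 h and 2.65 at 48 h, while the 3 albumin animals of set 2 lay at -1.82, -2.24 and -1.33 relative to the mean of their 2 shams. The difference between the sets was not tested. Ogn was 2.42 ± 0.88 above the sham as the mean of 3 times in set 1 (limma adjusted p = 0.342). At 24 h in set 2 it was at -5.39 ± 0.96 (limma adjusted p = 0.047). For Col1a2 these values were 2.51 ± 0.45 and -2.40 ± 0.60 (limma adjusted p = 0.0807 and 0.0846). On the 24 h array of set 1 alone, Ogn differed from the sham by 0.20 and Col1a2 by 0.50. The set 1 sham is a single animal. Whether more or less of the meninges was taken with the cortex is not recorded in the labels and was not tested.

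Some probe sets without a gene of their own also differed from the sham. Of 4450 such probe sets past the filter, which name no gene or several, 48 were at least 2-fold higher than the sham at all 3 albumin times and 34 at least 2-fold lower. Among the 10018 genes tested these counts were 166 (1.66%) and 42 (0.419%). The 4450 probe sets enter no comparison above.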

How the results depend on the processing

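The calls against sham kept their direction under each alternative in which they were tested (all 37, except 29 with a mean above log2 5 and 34 with the mean of all probe sets), and the count was 62 with the sham placed at 24 h, 0 with the 4 arrays alone, 136 without DOC, 0 without TGF-β1, 61 with a trend and robust prior, 13 with the mean of all probe sets, 22 with values below log2 4 set to 4, 61 with median centring and 597 with all 19 arrays. Without a filter it was 42, of which 12 were higher and 30 lower, against 34 and 3, and 10 were shared. Leaving out each treated array in turn gave 2 to 117. The lone sham stayed in every fit of set 1, so that the direction of the calls was nearly fixed there and tests nothing. The DOC comparison gave 0 with the 2 agents alone and 1 to 2 without each time, and that with TGF-β1 0 to 1. In set 2 the replicate block gave 53 calls against 137; deviations of same-numbered arrays correlated at 0.143 and 0.04, so that the numbers do not show a pairing. No filter gave 27 there, and leaving out each array 1 to 190. No paired analysis was possible in set 1 because each agent and time has 1 array. Counts at each time stayed within 1.5 times. List medians moved by less than the spread of the 3 arrays in 487 cases and by more in 17. Of genes named, none past the threshold changed sign; others did: with the sham at 24 h Aqp4 to -0.03, Aspa to -0.25, Fos to 0.18 and Lum to -0.04; with all 19 arrays Fos to 0.79, Ogn to -1.37, Smad7 to -0.06 and Ugt8 to -0.04; with the mean of probe sets Slc1a2 to -0.28; and with each albumin array left out Fos ran from -0.80 to 0.13, Rasd2 from -0.34 to 0.01, Gja1 from -0.16 to 0.09, Slc1a3 from -0.26 to 0.05, Bdnf from -0.08 to 1.13 and Enpp2 from -0.32 to 0.21. Apart from the calls lost with fewer arrays, the causes were not tested. Signals near log2 2 to 4 lie at the low end of the scale and limit the size of differences there.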
